A study of Mus musculus with 9 samples.

Results

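The comparison described here sets livers of mice kept in microgravity in space (MG) against livers of both groups of mice kept at 1 g, one spun in a centrifuge in space (A1G) and one housed on Earth (GC). The contrast is the mean of MG minus the average of the means of A1G and GC, taken from 1 fit of all 9 libraries, so that 3 libraries stood against 6. All genes entered by the same rule, and 13193 of the 34866 genes in the deposited table had enough counts to be tested. The study asked how spaceflight and artificial gravity alter liver metabolism. This contrast asks which transcripts differed between microgravity and the average of both 1 g groups.

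All animals were wild-type male C57BL/6J mice, bought as young animals for the flight and for the ground experiment. MG and A1G mice each spent 30 days in space, without weight or under centrifugation at about 1 g, and GC mice stayed on Earth with the same diet. Each group held 3 libraries, each from the homogenized liver of 1 mouse. The groups are limited as models of gravity alone. A1G mice also passed through launch, weightless transfer and landing, flight mice were dissected some time after splashdown, the ground experiment was run at another place and a later date, and carbon dioxide was higher on board than on the ground and slightly higher for MG than for A1G. In the difference of MG from GC, gravity, flight and place therefore cannot be told apart. GC is part of the 1 g average, so the contrast itself carries this difference in part.

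The liver makes fatty acids from excess sugar and exports them as lipoproteins. In this lipogenic pathway citrate is split to acetyl-CoA, carboxylated to malonyl-CoA, built into palmitate, and then elongated and desaturated. The liver also secretes most plasma proteins, which fold in the endoplasmic reticulum (ER) with the help of chaperones, and an overloaded ER raises its own chaperones through the unfolded protein response. In mice many liver genes differ between the sexes, because growth hormone is secreted in pulses in males and more steadily in females, and the male pattern includes the major urinary proteins (Mup genes).

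Libraries held 13189515 to 23738049 estimated counts, and hepatocyte markers were abundant in all of them. Albumin (Alb) stood at 62546, 58471 and 51481 CPM (read counts scaled to library size) in MG livers, against 59703, 59098 and 55703 CPM in A1G livers and 58004, 58872 and 55613 CPM in GC livers. No gene of the neutrophil list passed the count filter, and in that list Ly6g and Ltf were at 0 in every library. Mup transcripts took 3.53 to 3.98% of counts in MG, 4.12 to 5.3% in A1G and 8.21 to 13.3% in GC. A1G replicate 1 stood apart from its group. On the first principal component, which held 26.9% of the variance, it lay at -23.2, beside the MG libraries at -29.8, -29.5 and -18.8 and away from A1G replicates 2 and 3 at 7.54 and 0.212 and the GC libraries at 32.1, 28.3 and 33.2. Whether its label is right was not tested, and it was kept as labelled, so every value against A1G or against the average of both 1 g groups rests on that label. The main counts are therefore also given without it.

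In MG livers 86 genes were higher and 133 were lower than in the average of both 1 g groups (edgeR quasi-likelihood test, Benjamini-Hochberg adjusted p under 0.05). These 219 genes were 1.66% of the genes tested, 0.652% higher and 1.01% lower, and a gene past this threshold is described as having risen, fallen or been called. At an unadjusted p under 0.05 there were 1855 genes (14.1%). Counts of the gene lists below are to be read beside these shares. The lists and the comparison were chosen with earlier results of these data known, so such counts only describe the lists. The lower genes were led by enzymes of fatty acid synthesis, the higher genes by the prolactin receptor and cytochrome P450 genes of the Cyp2c family. The median absolute log2 fold change was 0.84 among the higher genes and 1.02 among the lower genes, and 36 and 72 of them changed by at least 1 on the log2 scale.

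**Figure D1:**
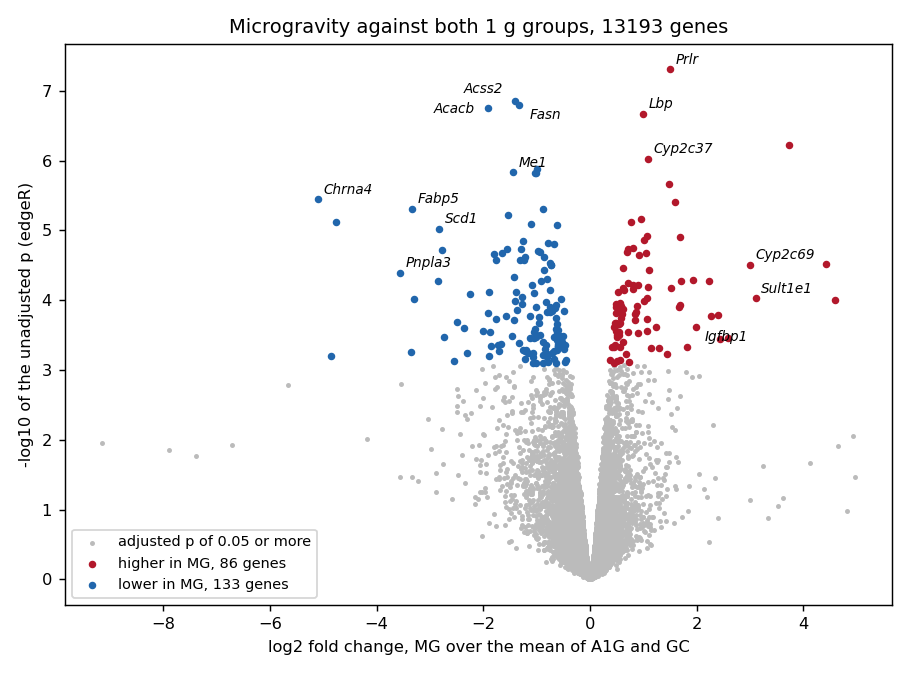
Each point is 1 of 13193 genes, with the log2 fold change of MG over the mean of A1G and GC on the x axis and -log10 of the unadjusted edgeR p on the y axis. Red points are the 86 genes called higher in MG and blue points the 133 called lower, with Prlr and Acacb among those of smallest p.

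The libraries themselves show how far the groups were apart. In 171 of the 219 called genes all 3 MG libraries lay above, or all below, the 6 libraries kept at 1 g (71 higher and 100 lower), and in 48 they overlapped. Over all genes tested such a separation was seen in 837 (6.34%), 3.14% above and 3.21% below. In 185 of the called genes (84.5%) the mean of A1G lay between those of MG and GC, and over all genes tested in 40.4%. Being called depends on both measures, so these shares only describe the called genes. The 1 g groups also differed from each other, with 85 genes called between A1G and GC (0.644%). MG taken alone against A1G gave 10 genes (0.0758%) and against GC 439 (3.33%). Of the 219 called genes 200 were also called against GC alone and 9 against A1G alone. Most calls were thus past the threshold against GC and not against A1G, and an average over both can hide a group that sits close to MG. The stricter question, whether MG differed from each 1 g group, was asked with the larger of the p-values of MG vs. A1G and MG vs. GC, which share the MG libraries. No gene passed it at an adjusted p under 0.05 (smallest 0.0705, edgeR), 594 genes did at an unadjusted p under 0.05 (4.5%), and DESeq2 called 77 genes and limma none at the adjusted threshold.

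The number of called genes hung on single libraries. Without MG replicate 1 there were 46 calls, without MG replicate 2 there were 56 and without MG replicate 3 there were 142. Leaving out A1G replicate 1 raised the count to 420, of which 216 were among the 219. Without A1G replicate 2 the count was 127 and without GC replicate 2 it was 121, while the other 3 libraries gave 159 to 220.

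**Figure D2:**
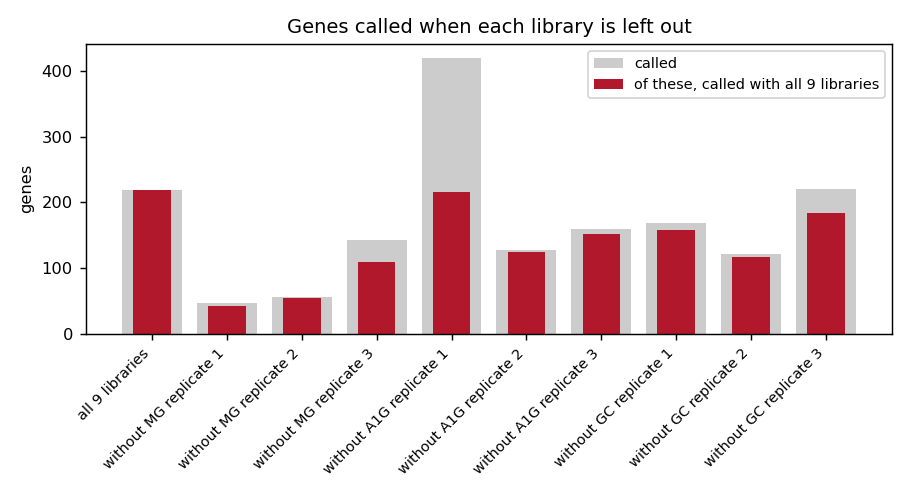
Bars give the number of genes called in MG against both 1 g groups with all 9 libraries and with each library left out in turn, and the narrow red bars give how many of them were among the 219 called with all 9. The count was lowest without MG replicate 1 (46) and highest without A1G replicate 1 (420).

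The prolactin receptor gene (Prlr, GRCm38 chr15:10177238-10349180, plus strand) had the smallest p of the comparison. Its product passes prolactin and placental lactogen signals to the cell and is more abundant in female than in male mouse liver. Prlr reached 247, 217 and 250 CPM in MG livers, against 139, 92.2 and 101 CPM in A1G livers and 67.6, 58.4 and 62.9 CPM in GC livers. No MG library overlapped the others, A1G lay between, and A1G replicate 1 was the highest of the 1 g libraries. Its log2 fold change was 1.51 ± 0.12 (SE) with an adjusted p of 0.000563 (edgeR), made up of 1.10 against A1G (adjusted p = 0.0402) and 1.92 against GC (adjusted p = 0.000127). Prlr was called in all 9 fits that left out a library.

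Female-biased liver genes formed the group with the highest median. Of 37 genes listed, 26 passed the filter on counts. Among these 11 rose and none fell, against 0.652% and 1.01% of all genes tested, and the median log2 fold change of those tested was 1.30, against 0.00 over all genes. The passing members are not all members, since a gene nearly silent in male liver could pass only where it was high. The median was 0.90 against A1G and 1.49 against GC, and 16 members rose without A1G replicate 1. Without MG replicate 2 there were 5 and without MG replicate 1 there were 7.

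Fmo2, a flavin-containing monooxygenase that oxidizes drugs and other soft nucleophiles, read 176, 90.6 and 57.2 CPM in MG livers, against 39.1, 40.4 and 34.3 CPM in A1G livers and 28.8, 38.1 and 20.3 CPM in GC livers. MG varied widely but did not overlap the 1 g groups, which overlapped each other. The log2 fold change was 1.70 ± 0.28 (adjusted p = 0.0114, edgeR). Fmo1 rose by 0.57 ± 0.12 (adjusted p = 0.0349).

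Cytochrome P450 genes of the Cyp2c family encode heme enzymes that hydroxylate drugs, steroids and fatty acids. Cyp2c69 gave 31.4, 128 and 90.9 CPM in MG livers, against 16.0, 6.08 and 9.36 CPM in A1G livers and 5.57, 19.6 and 5.11 CPM in GC livers. GC replicate 2 came nearest to the lowest MG library, and A1G and GC did not separate (log2 fold change of A1G over GC 0.04). In the contrast Cyp2c69 rose by 3.01 ± 0.46 (adjusted p = 0.00823, edgeR). Cyp2c68 gave 357, 424 and 401 CPM in MG livers, against 215, 164 and 206 CPM in A1G livers and 207, 251 and 178 CPM in GC livers, with no overlap. It rose by 0.95 ± 0.12 (adjusted p = 0.00497) and was higher than in A1G by 1.02 (adjusted p = 0.0412). Cyp2c37, Cyp2c38 and Cyp2c39 rose by 1.08 ± 0.12, 1.48 ± 0.17 and 1.68 ± 0.23, and of these 5 genes Cyp2c39 and Cyp2c69 belong to the female-biased list. These genes lie beside each other on chromosome 19 and are close copies, so reads may have been shared out among them by the quantification.

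In some female-biased genes that rose, A1G replicate 1 lay close to MG. Acnat2, an acyltransferase that conjugates fatty acids, read 131, 127 and 185 CPM in MG livers, against 125, 62.9 and 72.5 CPM in A1G livers and 30.9, 23.8 and 28.5 CPM in GC livers. A1G replicate 1 came close to the lowest MG library without overlap, and the log2 fold change was 1.59 ± 0.20 (adjusted p = 0.00368, edgeR). The steroid and xenobiotic hydroxylase gene Cyp2b9 had 6.70, 10.8 and 22.0 CPM in MG livers, against 6.81, 0.1 and 4.88 CPM in A1G livers and 0.0977, 0.0918 and 0 CPM in GC livers. MG and A1G overlapped, GC was near 0, and the fitted change of 4.60 ± 0.81 depends on the few GC counts. The remaining called members were A1bg, Cyp2a22 and the organic anion transporter gene Slc22a26.

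Male-biased liver genes moved mostly the other way. Of 44 tested, 16 fell and 1 rose, against 1.01% and 0.652% of all genes tested. The median log2 fold change was -0.98. The count swung widely, with 25 lower without A1G replicate 1, 1 without MG replicate 1 and 5 each without MG replicate 2 or 3. The median was -0.49 against A1G and -1.15 against GC, and GC replicates carried the highest share of Mup transcripts. Elovl3, an elongase of very long chain fatty acids, read 42.2, 48.2 and 111 CPM in MG livers, against 123, 359 and 278 CPM in A1G livers and 389, 323 and 480 CPM in GC livers. The groups of MG and 1 g did not overlap, though MG replicate 3 came close to A1G replicate 1, and Elovl3 fell by 2.24 ± 0.38 on the log2 scale (adjusted p = 0.0139, edgeR).

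Glutathione S-transferase pi (Gstp1), which conjugates glutathione to electrophiles and is far higher in male mouse liver, stood at 484, 455 and 305 CPM in MG livers, against 1576, 855 and 671 CPM in A1G livers and 1101, 1080 and 1154 CPM in GC livers. Here A1G and GC overlapped fully, with a log2 difference of A1G over GC of -0.10, and Gstp1 fell by 1.37 ± 0.25 (adjusted p = 0.0182). Mup20, known as darcin, a male pheromone carrier, gave 3565, 4124 and 3226 CPM in MG livers, against 3124, 10460 and 7462 CPM in A1G livers and 15098, 14309 and 13470 CPM in GC livers. One A1G library fell below all MG libraries, so the fall of 1.46 ± 0.29 (adjusted p = 0.0286) did not separate the groups. The other members that fell were Nat8f5, Ugt2b1, Ugt2b38, C6, Mup1, Mup2, Mup7, Cyp4a12a, Cyp4a12b, Cyp2u1, Serpina1e, Susd4 and Ihh, with log2 fold changes of the whole group of 16 between -0.81 and -2.85. Mup genes are near-identical copies and their separate counts are uncertain.

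One member of the male list went against it. Sult1e1, which sulfates and so inactivates estrogens, had 2.14, 3.67 and 2.93 CPM in MG livers, against 0.448, 0.151 and 0.320 CPM in A1G livers and 0.342, 0.689 and 0 CPM in GC livers. The MG libraries were all above the rest at a low level, with a log2 fold change of 3.11 ± 0.54 (adjusted p = 0.0155, edgeR).

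Among 22 genes of growth hormone, prolactin and insulin-like growth factor (IGF) signalling, 3 rose (Prlr, Igfals and Igfbp1) and none fell, with 1 higher without MG replicate 1. The receptor gene Ghr and the transcription factor gene Stat5b, which carry the growth hormone signal, had log2 fold changes of -0.06 ± 0.10 and 0.14 ± 0.19 and were not called (adjusted p = 0.845 and 0.815). Igfals, the subunit that holds IGF in its circulating complex, stood at 171, 177 and 140 CPM in MG livers, against 118, 113 and 127 CPM in A1G livers and 108, 106 and 92.5 CPM in GC livers, a rise of 0.56 ± 0.10 (adjusted p = 0.0174). Igfbp1, which binds IGF in plasma and is induced in fasting, read 53.9, 24.6 and 108 CPM in MG livers, against 7.76, 10.2 and 21.3 CPM in A1G livers and 21.2, 14.0 and 20.7 CPM in GC livers. MG varied widely, its lowest library was just above the highest at 1 g, and the rise was 1.98 ± 0.38 (adjusted p = 0.0246). It was also the only called gene of 25 in a list of gluconeogenesis and the fasting response, where an unadjusted p under 0.05 was reached by 7 higher genes and 1 lower gene. Leaving out single libraries gave 0 to 2 higher calls in that list.

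**Figure D3:**
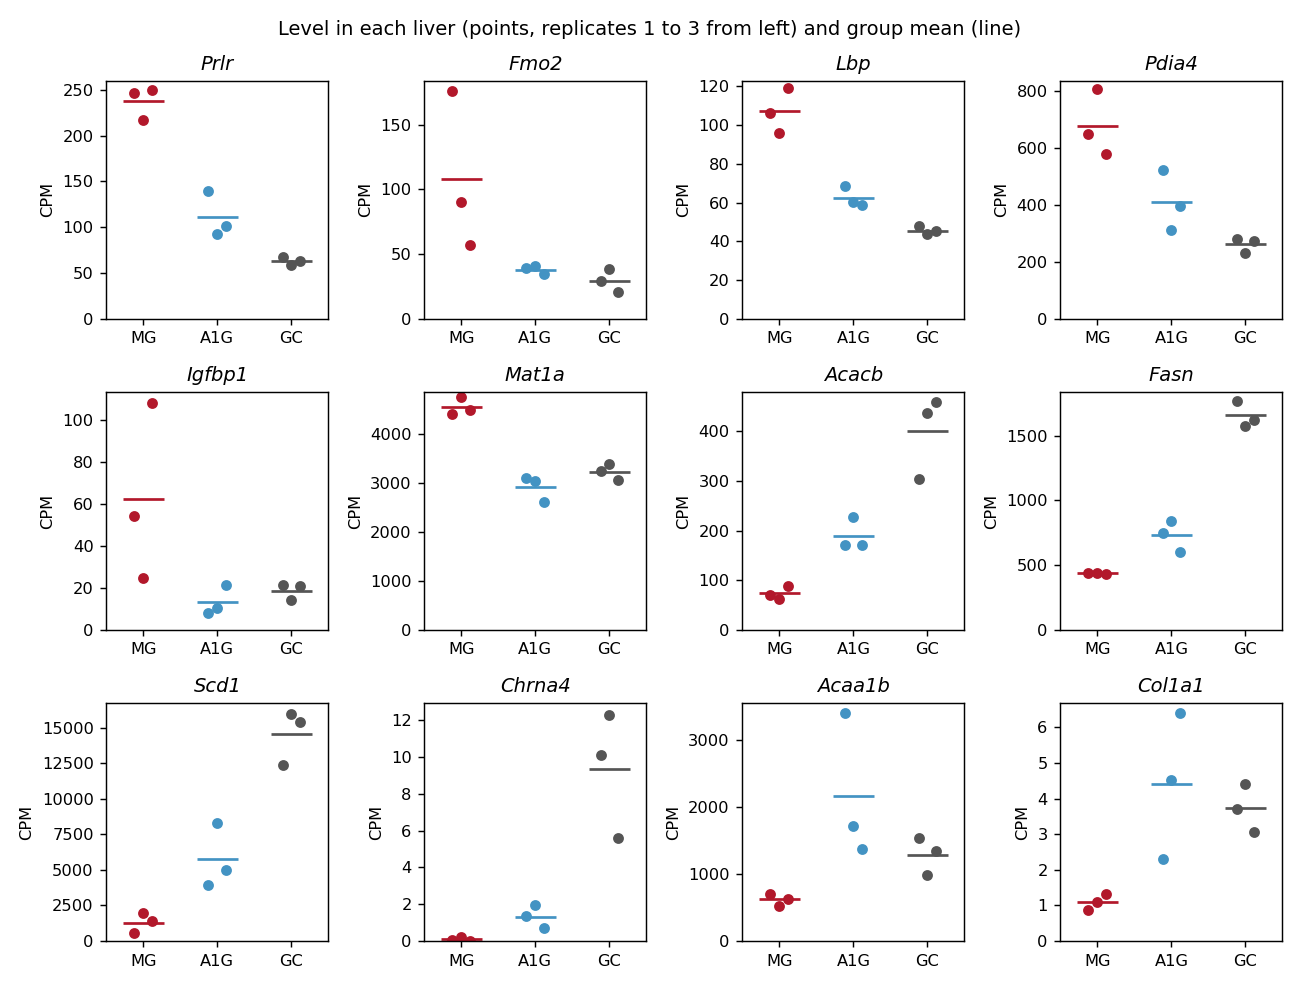
CPM of 12 genes in each of the 9 livers, with groups MG, A1G and GC on the x axis, replicates 1 to 3 in order and the group mean as a line; all y axes are linear and start at 0. Prlr, Fmo2, Lbp, Pdia4, Igfbp1 and Mat1a lay higher in MG, and Acacb, Fasn, Scd1, Chrna4, Acaa1b and Col1a1 lower. MG did not overlap the 6 libraries at 1 g in any of the 12. This separation was a condition for naming some of them, such as Prlr and Fmo2, and among the 219 called genes 48 overlapped.

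Genes at every step of fatty acid synthesis were among those that fell. Of 22 genes of the pathway, all of which passed the filter, 13 fell and none rose, against 1.01% and 0.652% of all genes tested. The list was chosen with earlier results of these data known, so these shares only describe it. Its median log2 fold change was -0.95. Median values were -0.70 against A1G and -1.27 against GC. The count was 8 to 13 when single libraries were left out, 13 of them without A1G replicate 1. It was 2 when A1G and GC were fitted as 1 group, a fit whose spread takes in the difference between them. At an unadjusted p under 0.05 the list held 1 higher and 17 lower genes, and DESeq2 called 1 higher and 16 lower. Against A1G alone Acacb and Me1 were called, while the adjusted p was 0.0648 for Fasn, Scd1 and Fads2 (edgeR). It lay between 0.133 (Acaca) and 0.578 (Pnpla5) for Acaca, Acly, Elovl5, Elovl6, Fads1, Pnpla3, Pnpla5 and Thrsp.

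The acetyl-CoA supply is the first step. Acss2, which makes acetyl-CoA from acetate and was named by its p rather than by the list, gave 84.0, 88.6 and 72.3 CPM in MG livers, against 121, 164 and 128 CPM in A1G livers and 326, 377 and 325 CPM in GC livers. Acly, which splits citrate, gave 151, 166 and 183 CPM in MG livers, against 173, 324 and 326 CPM in A1G livers and 564, 603 and 667 CPM in GC livers. Acss2 was separate between all 3 groups, whereas in Acly A1G replicate 1 lay within the MG range. Their log2 fold changes were -1.41 ± 0.13 and -1.30 ± 0.19 (adjusted p = 0.000563 and 0.00717, edgeR). Me1, the malic enzyme that supplies NADPH, read 118, 123 and 151 CPM in MG livers, against 375, 224 and 274 CPM in A1G livers and 470, 395 and 440 CPM in GC livers. It fell by 1.45 ± 0.16 (adjusted p = 0.00181), and by 1.16 against A1G alone (adjusted p = 0.0423).

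Malonyl-CoA is made by the acetyl-CoA carboxylases. Acacb, the mitochondrial form, whose product restrains fatty acid oxidation (GRCm38 chr5:114146535-114250761), gave 70.1, 62.4 and 87.6 CPM in MG livers, against 170, 228 and 171 CPM in A1G livers and 304, 437 and 459 CPM in GC livers. The 3 groups formed a ladder with no overlap, and Acacb fell by 1.91 ± 0.17 (adjusted p = 0.000563, edgeR), by 1.37 against A1G (adjusted p = 0.0402) and by 2.45 against GC (adjusted p = 0.000127). The cytosolic form Acaca fell by 0.88 ± 0.11 (adjusted p = 0.00403). Fasn, which builds palmitate, stood at 436, 436 and 434 CPM in MG livers, against 750, 840 and 598 CPM in A1G livers and 1769, 1575 and 1623 CPM in GC livers. The MG libraries were almost equal, and Fasn fell by 1.34 ± 0.12 (adjusted p = 0.000563).

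Elongation and desaturation followed. Scd1, the desaturase that makes oleate, read 538, 1946 and 1385 CPM in MG livers, against 3931, 8298 and 5021 CPM in A1G livers and 12362, 15938 and 15424 CPM in GC livers. The groups were again in 3 separate ranges, and Scd1 fell by 2.83 ± 0.38 (adjusted p = 0.00545, edgeR). Elovl6, the elongase of palmitate, and Elovl5 fell by 1.54 ± 0.20 and 1.06 ± 0.18, and the desaturases of polyunsaturated fatty acids Fads2 and Fads1 by 1.01 ± 0.11 and 0.73 ± 0.11 (adjusted p between 0.00181 and 0.0137). Fads2 was narrow within MG, at 241, 244 and 248 CPM, against 343, 446 and 397 CPM in A1G livers and 545, 679 and 620 CPM in GC livers.

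Among the genes with large falls, Pnpla3 and Pnpla5 were near the lower limit of counting in MG. Pnpla3, a lipid droplet protein gene known for a human fatty liver variant, had 0.347, 0.539 and 0.0733 CPM in MG livers (6, 11 and 1 counts), against 0.897, 2.26 and 1.32 CPM in A1G livers and 18.8, 9.14 and 6.22 CPM in GC livers. Its fitted change was -3.56 ± 0.56 (adjusted p = 0.00966, edgeR). Thrsp, a lipogenic regulator driven by thyroid hormone and carbohydrate, fell by 2.49 ± 0.47, with A1G replicate 1 inside the MG range. Pnpla5, a lipase gene, stood at 0.116, 0 and 0 CPM in MG livers, against 0, 0.653 and 0.280 CPM in A1G livers and 6.35, 7.16 and 3.11 CPM in GC livers, and was called lower (adjusted p = 0.0409). Fabp5, a fatty acid carrier outside the list, read 4.10, 4.02 and 2.71 CPM in MG livers, against 6.55, 23.7 and 11.6 CPM in A1G livers and 70.8, 144 and 76.8 CPM in GC livers, and fell by 3.33 ± 0.42 (adjusted p = 0.00403).

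The transcription factor genes Srebf1 and Mlxipl did not pass the test. Srebf1, which encodes SREBP-1, the activator of these enzymes, stood at 310, 208 and 140 CPM in MG livers, against 392, 359 and 329 CPM in A1G livers and 302, 282 and 323 CPM in GC livers. MG replicate 1 lay inside the GC range, and the log2 fold change was -0.59 ± 0.19 (adjusted p = 0.188, edgeR). Mlxipl, which encodes the carbohydrate-responsive factor ChREBP, had a log2 fold change of -0.15 ± 0.12 (adjusted p = 0.656).

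**Figure D4:**
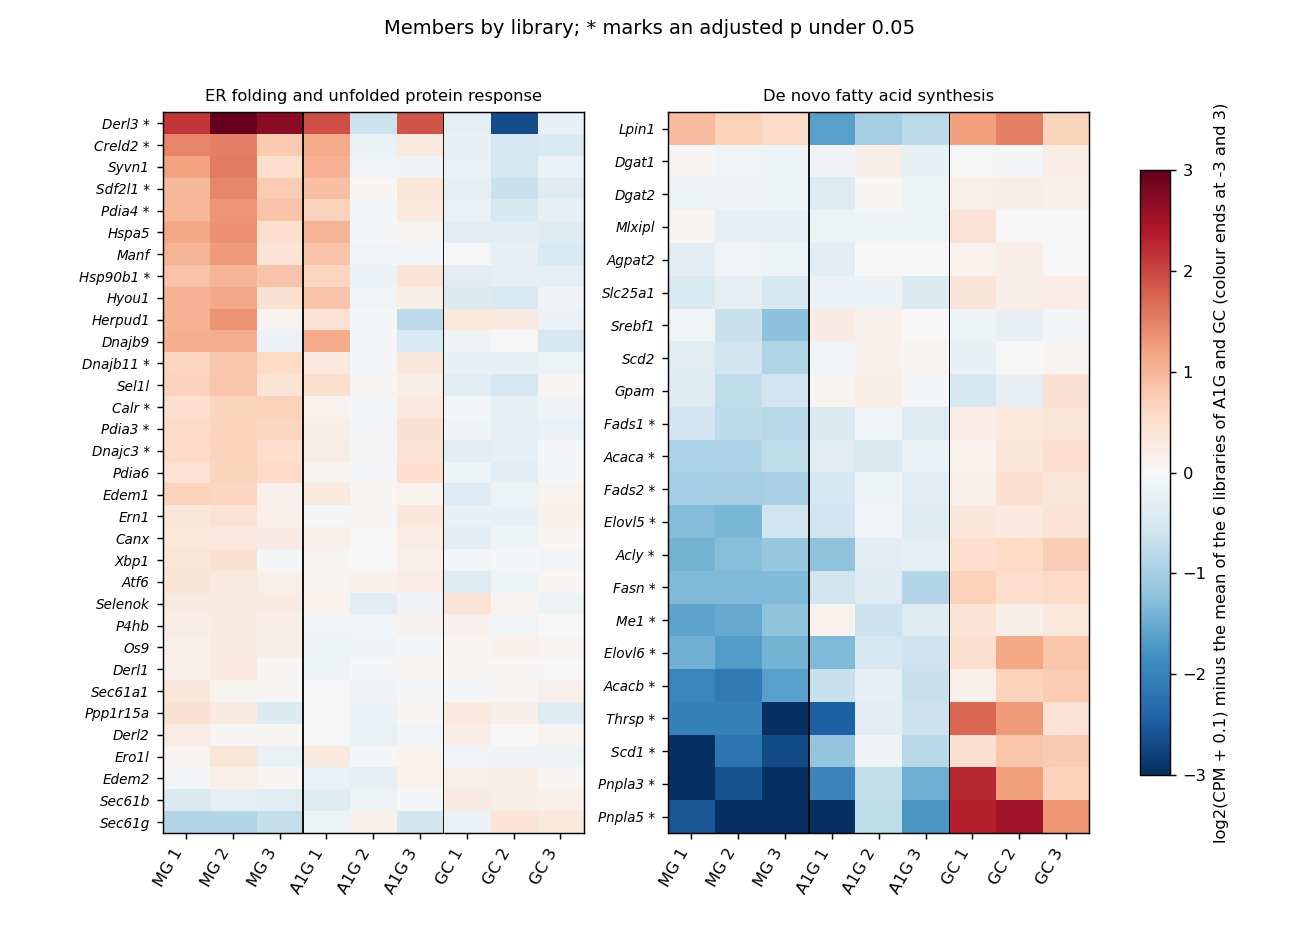
Colour gives log2(CPM + 0.1) of each tested member in each library minus the mean of the 6 libraries of A1G and GC, for the ER folding list (left) and the fatty acid synthesis list (right), with MG, A1G and GC libraries on the x axis and an asterisk for an adjusted p under 0.05. MG columns were red in most ER genes and blue in most lipogenic genes, and A1G replicate 1 shared part of both patterns.

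Some enzymes of sugar use fell. Of 18 genes of glycolysis and fructose use 4 fell, none rose and 14 were not called, against 1.01% lower and 0.652% higher of all genes tested. The median log2 fold change of the list was -0.30. Pklr, the liver pyruvate kinase, read 92.8, 131 and 160 CPM in MG livers, against 112, 231 and 212 CPM in A1G livers and 649, 674 and 601 CPM in GC livers. A1G lay close to MG and overlapped it, so the fall of 1.43 ± 0.23 (adjusted p = 0.0111, edgeR) was made up of -0.53 against A1G (adjusted p = 0.567) and -2.33 against GC (adjusted p = 0.000808). Eno1, Gpi1 and Khk, the fructose kinase, fell by 0.68 ± 0.10, 0.55 ± 0.10 and 0.84 ± 0.18. The list held no call without MG replicate 1, 1 without MG replicate 2 and 6 without A1G replicate 1.

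Cholesterol synthesis and uptake moved in both directions, with 1 of 23 genes higher and 3 lower. Idi1, an isomerase of the isoprenoid chain, gave 281, 237 and 294 CPM in MG livers, against 122, 154 and 130 CPM in A1G livers and 199, 231 and 176 CPM in GC livers. Unlike most called genes its A1G libraries were the lowest, and it rose by 0.71 ± 0.12 (adjusted p = 0.0119, edgeR). Pmvk, Acat2 and Dhcr7 fell by 0.93 ± 0.14, 0.49 ± 0.10 and 0.68 ± 0.14, and the last 2 overlapped with A1G. Between 1 and 4 members fell when single libraries were left out, and Idi1 was not called without MG replicate 1. The median of the list was 0.36 against A1G and -0.23 against GC.

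Some ER chaperone genes rose. Of 33 tested genes of ER folding and the unfolded protein response 9 rose, none fell and 24 were not called. Of all genes tested 0.652% rose and 1.01% fell. The median log2 fold change of the list was 0.55, with 0.37 against A1G and 0.73 against GC. Pdia4, a disulfide isomerase, stood at 648, 806 and 580 CPM in MG livers, against 521, 311 and 396 CPM in A1G livers and 279, 231 and 272 CPM in GC livers. Hsp90b1, the chaperone GRP94, read 1849, 2079 and 1860 CPM in MG livers, against 1604, 908 and 1355 CPM in A1G livers and 817, 836 and 853 CPM in GC livers. In both genes A1G replicate 1 was the highest of the 1 g libraries and MG did not overlap them. They rose by 1.05 ± 0.15 and 0.89 ± 0.15 (adjusted p = 0.00717 and 0.0123, edgeR).

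Calr, the lectin chaperone calreticulin, rose by 0.62 ± 0.10, and the co-chaperone Dnajb11 by 0.69 ± 0.10. Derl3, a channel component of ER-associated degradation, read 17.0, 36.5 and 25.2 CPM in MG livers, against 14.7, 2.36 and 14.2 CPM in A1G livers and 3.03, 0.505 and 3.23 CPM in GC livers. Its rise was 2.45 ± 0.49 (adjusted p = 0.0297, edgeR). Sdf2l1, Pdia3, Dnajc3 and Creld2 completed the 9. Against A1G alone none of the 9 was called, with an adjusted p between 0.185 (Dnajb11) and 0.522 (Derl3, edgeR). Against GC alone the adjusted p lay between 0.00242 (Dnajb11) and 0.0132 (Derl3). Hspa5, the main ER chaperone BiP, narrowly missed the threshold, with 3231, 3777 and 2056 CPM in MG livers, against 2938, 1391 and 1537 CPM in A1G livers and 1170, 1158 and 1104 CPM in GC livers (log2 fold change 1.01 ± 0.23, adjusted p = 0.0515). A1G replicate 1 lay inside the MG range there. At an unadjusted p under 0.05 the ER list held 23 higher and 2 lower genes, against 14.1% of all genes tested. It had 1 lower call without A1G replicate 1 and 1 by DESeq2. The count of higher genes was 15 without A1G replicate 1, 5 without GC replicate 2, 2 without MG replicate 1 and 0 without MG replicate 2. With A1G and GC fitted as 1 group it was also 0, against 5 for the female-biased and 1 lower for the male-biased list. Heat shock proteins of the cytosol and mitochondria had no called gene among 22 and proteasome subunits none among 36 (3 and 15 at an unadjusted p under 0.05, 1 and 3 by DESeq2). Without A1G replicate 1 there were 4 proteasome genes, all higher, and 1 heat shock gene was lower without MG replicate 2 or GC replicate 3. Of the 36 proteasome genes 32 had positive log2 fold changes and 4 negative ones (median 0.19).

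The promoters of these ER genes were read because the unfolded protein response acts through a known element, the ER stress response element, which is CCAAT and CCACG with 9 bases of any kind between them, bound by NF-Y at its CCAAT end and by ATF6 at its CCACG end. Promoter sequences of RefSeq (GRCm38.p6) ran from 250 bases before to 50 bases after each start. Only the 250 bases before the start were searched, on both strands. Of the 9 called ER genes 5 held the element, against 16 of 12899 promoters of genes tested (0.124%). It was also found in 4 of 18 ER genes that were tested but not called and had a promoter in the table, among them Hspa5. A match describes these letters only, and the list was not independent of the element, since its genes are known targets. The stretches are given 5′ to 3′ in the direction of the gene, with the 19 bases of the element in capitals, reversed and complemented in Calr, Derl3, Creld2 and the second stretch of Hsp90b1.
Calr (chr8:84847055-84847113, minus strand): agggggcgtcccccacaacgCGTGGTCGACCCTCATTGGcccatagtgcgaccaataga
Derl3 (chr10:75893222-75893280, plus strand): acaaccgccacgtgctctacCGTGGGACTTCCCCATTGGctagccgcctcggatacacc
Hsp90b1 (chr10:86705618-86705676, minus strand): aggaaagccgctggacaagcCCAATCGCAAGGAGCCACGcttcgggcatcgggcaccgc
Hsp90b1 (chr10:86705513-86705571, minus strand): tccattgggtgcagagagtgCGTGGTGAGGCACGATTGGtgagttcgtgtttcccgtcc
Dnajc3 (chr14:118937807-118937865, plus strand): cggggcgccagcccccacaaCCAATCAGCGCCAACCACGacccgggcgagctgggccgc
Creld2 (chr15:88819500-88819558, plus strand): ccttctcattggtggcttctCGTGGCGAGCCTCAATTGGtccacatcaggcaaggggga
Hspa5 (chr2:34772005-34772063, plus strand): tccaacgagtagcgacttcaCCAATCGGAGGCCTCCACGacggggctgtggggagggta

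The called genes without this element were Pdia4, Dnajb11, Sdf2l1 and Pdia3, so the rise was not limited to promoters that hold it in this window. A sterol regulatory element, TCACNCCAC, was searched in the same way for the lipogenic genes. It was in none of the 11 called lipogenic genes with a promoter in the table, in 1 of the 6 tested lipogenic genes that were not called and had a promoter (Mlxipl), and in 1.04% of promoters of genes tested.

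Acute phase plasma proteins, which the liver secretes in inflammation, were higher in 7 of 27 genes and lower in none. Of all genes tested 0.652% were higher and 1.01% lower. The median log2 fold change of the list was 0.30. Lbp, which presents bacterial lipopolysaccharide to immune cells, gave 106, 96.1 and 119 CPM in MG livers, against 68.4, 60.3 and 58.6 CPM in A1G livers and 47.7, 43.5 and 45.4 CPM in GC livers. The 3 groups were separate, and Lbp rose by 1.00 ± 0.09 (adjusted p = 0.000563, edgeR), by 0.78 against A1G (adjusted p = 0.0412) and by 1.23 against GC (adjusted p = 0.000388). Serpina3m, a protease inhibitor, read 694, 644 and 665 CPM in MG livers, against 350, 420 and 452 CPM in A1G livers and 368, 407 and 357 CPM in GC livers. It rose by 0.77 ± 0.10 (adjusted p = 0.00499) with A1G and GC in 1 range.

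Complement C3, the centre of the complement cascade, stood at 11289, 9657 and 8967 CPM in MG livers, against 7867, 5864 and 6951 CPM in A1G livers and 3964, 4825 and 5367 CPM in GC livers, and rose by 0.81 ± 0.13 (adjusted p = 0.0129, edgeR). Apcs, serum amyloid P, rose by 0.81 ± 0.13, and Itih3, Orm3 and Hp, the haemoglobin binder haptoglobin, by 0.51 ± 0.10, 2.59 ± 0.52 and 0.46 ± 0.10. The classical acute phase genes Saa1 and Saa2 were not among them, with log2 fold changes of -0.37 ± 0.45 and -0.36 ± 0.47 (adjusted p = 0.787 and 0.8). Between 2 and 7 members rose when single libraries were left out, 2 without MG replicate 1, 3 without MG replicate 2, 4 without A1G replicate 2 or 3 and 7 without A1G replicate 1. Agt, angiotensinogen, the precursor of the angiotensins and outside the list, read 615, 798 and 775 CPM in MG livers, against 476, 472 and 463 CPM in A1G livers and 432, 383 and 440 CPM in GC livers, a rise of 0.72 ± 0.10 (adjusted p = 0.00717).

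Sulfur amino acid metabolism, the subject of the study, showed 1 called gene among 29 tested of methionine, cysteine and glutathione metabolism. Of all genes tested 1.66% were called. Mat1a, the liver enzyme that makes S-adenosylmethionine from methionine, stood at 4415, 4754 and 4494 CPM in MG livers, against 3097, 3049 and 2612 CPM in A1G livers and 3244, 3394 and 3068 CPM in GC livers. MG was above all other libraries, A1G and GC overlapped, and Mat1a rose by 0.57 ± 0.10 (adjusted p = 0.0167, edgeR). At an unadjusted p under 0.05 there were 9 members of this list, all higher, where 14.1% of all genes tested passed in either direction. DESeq2 called 6 and the fit with a replicate block 4, and none was called without MG replicate 2 or without MG replicate 3. Among 21 glutathione S-transferases Gstp1 and Gstm6 fell and none rose, with a median of -0.20, and Gstm6 fell by 0.76 ± 0.14 (adjusted p = 0.0185). Neither was called when any 1 of the 3 MG libraries was left out. Of 25 NRF2 and antioxidant genes Pgd alone, a NADPH source in the pentose phosphate pathway, was called, with 21.1, 23.1 and 30.4 CPM in MG livers, against 53.3, 37.3 and 47.5 CPM in A1G livers and 67.2, 62.9 and 56.6 CPM in GC livers. It fell by 1.11 ± 0.15 (adjusted p = 0.00503).

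**Figure D5:**
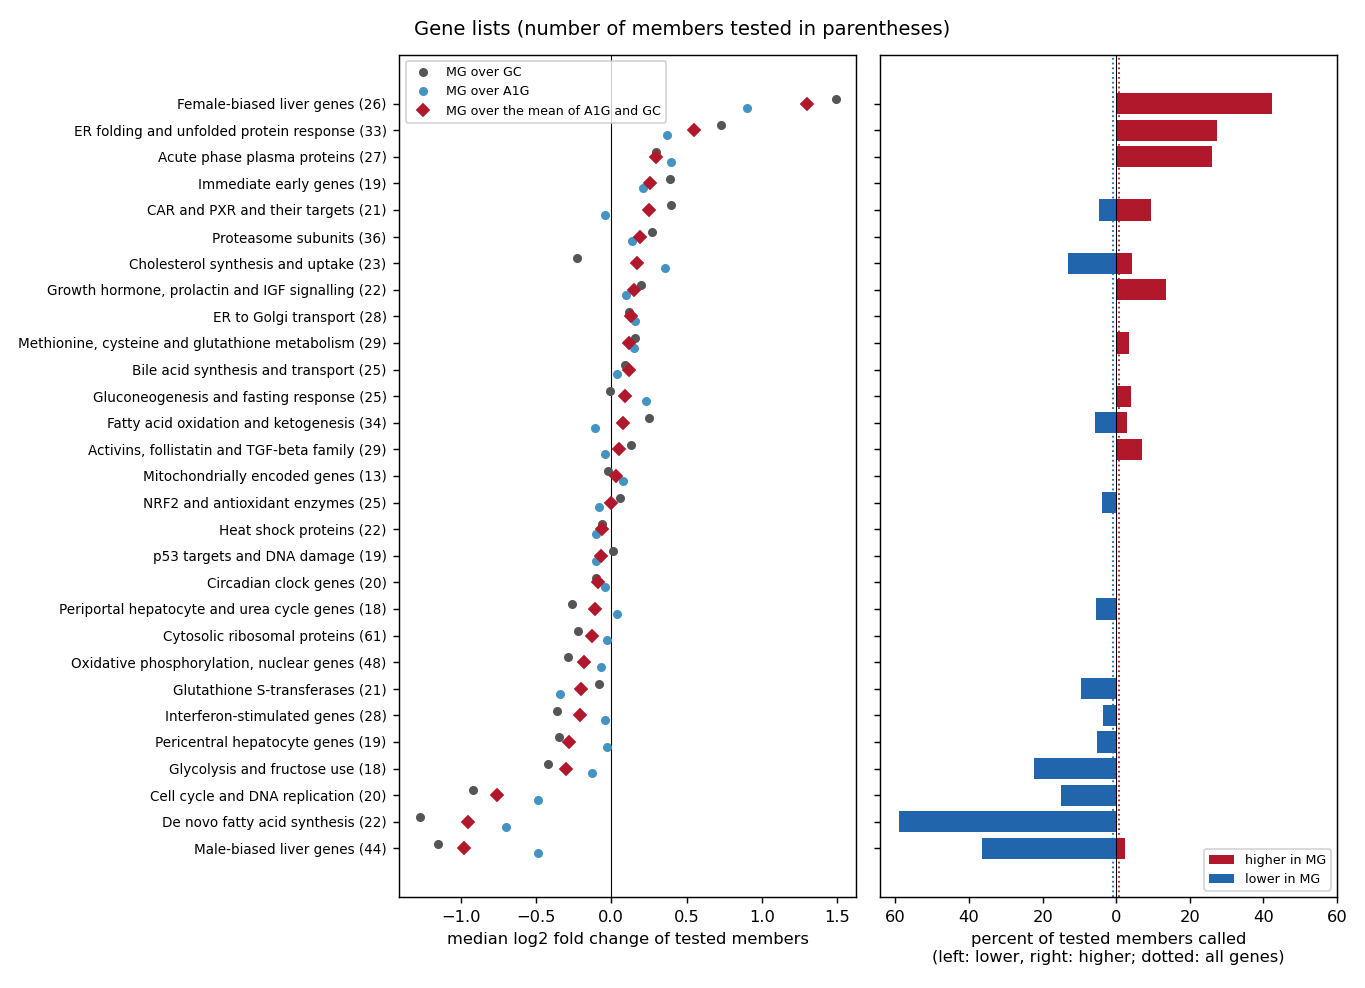
For 29 pathway lists, the left panel gives the median log2 fold change of tested members for MG over the mean of A1G and GC (diamonds), over A1G and over GC (dots), and the right panel the percentage of tested members called lower (left) or higher (right), with dotted lines at 1.01 and 0.652% for all genes tested. Female-biased, ER folding and acute phase genes were at the top with 11, 9 and 7 called, and fatty acid synthesis and male-biased genes at the bottom with 13 and 16 called lower.

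Other groups gave few calls. In fatty acid oxidation and ketogenesis Acnat2 rose and Acaa1b and Cyp4a12a fell, of 34 tested. Without A1G replicate 1 there were 6 higher and 3 lower, and without any 1 of the MG libraries none was lower. Acaa1b, a peroxisomal thiolase, read 702, 526 and 630 CPM in MG livers, against 3407, 1715 and 1367 CPM in A1G livers and 1532, 982 and 1339 CPM in GC livers. It passed the test only with both 1 g groups averaged (-1.43 ± 0.27, adjusted p = 0.0208, edgeR), with -1.80 against A1G (adjusted p = 0.0648) and -1.05 against GC (adjusted p = 0.0767). Such genes numbered 17, among them Errfi1, a feedback inhibitor of the epidermal growth factor receptor, with 1120, 1177 and 1211 CPM in MG livers, against 441, 634 and 682 CPM in A1G livers and 575, 881 and 743 CPM in GC livers. Errfi1 rose by 0.84 ± 0.15 (adjusted p = 0.0189). Ubb, Amy1 and Rnase4 rose by 0.58 ± 0.11, 0.46 ± 0.09 and 0.63 ± 0.13, and Mfsd4b1, Gse1, Mcm2 and Tnfaip2 fell by 0.56 ± 0.11, 0.61 ± 0.12, 1.73 ± 0.36 and 0.60 ± 0.13.

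Targets of the xenobiotic receptors CAR and PXR showed 2 higher and 1 lower of 21. The higher count was 0 when any 1 of the 3 MG libraries, GC replicate 1 or GC replicate 2 was left out, and 3 without A1G replicate 1. The lower gene was not called without MG replicate 1. Cyp2b10, the standard CAR target in mice, was the only called gene whose A1G mean lay beyond MG. It read 2.08, 3.13 and 4.03 CPM in MG livers, against 2.87, 2.41 and 4.84 CPM in A1G livers and 0.440, 0.367 and 0.293 CPM in GC livers. Its log2 fold change of 1.44 ± 0.31 (adjusted p = 0.0394, edgeR) was set by GC alone, with -0.14 against A1G and 3.03 against GC, and it was called in 2 of 9 fits that each left out 1 library. Ces2c, a carboxylesterase, fell by 1.79 ± 0.26 (adjusted p = 0.00724), with 17.8, 23.9 and 18.1 CPM in MG livers, against 68.6, 51.1 and 47.1 CPM in A1G livers and 116, 96.5 and 45.8 CPM in GC livers.

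Of the zonation genes, Cyp1a2 was called lower among 19 pericentral genes and Cdh1 among 18 periportal genes. At an unadjusted p under 0.05 the pericentral list held 3 higher and 6 lower genes and the periportal list 3 higher and 3 lower, against 14.1% of all genes tested. Without A1G replicate 1 there were 3 lower pericentral genes, with 1 higher and 1 lower periportal gene, and 2 pericentral genes were lower without MG replicate 3. Cyp1a2, which oxidizes caffeine, gave 154, 144 and 93.4 CPM in MG livers, against 263, 309 and 205 CPM in A1G livers and 448, 464 and 308 CPM in GC livers, and fell by 1.32 ± 0.20 (adjusted p = 0.00768, edgeR). Cdh1, the epithelial adhesion protein E-cadherin, fell by 1.26 ± 0.18 (adjusted p = 0.00697), with 16.2, 19.6 and 16.3 CPM in MG livers, against 26.2, 46.2 and 39.5 CPM in A1G livers and 40.7, 54.4 and 44.0 CPM in GC livers.

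Among 29 genes of activins, follistatin and the TGF-beta family Inhbb and Inhbc, subunits of activins, rose. Neither was called without MG replicate 1 or MG replicate 2, and of the 9 fits that each left out 1 library 6 called Inhbb and 2 called Inhbc. Without A1G replicate 1 there were also 2 lower genes in the list. Inhbb read 12.9, 6.81 and 8.94 CPM in MG livers, against 4.98, 1.00 and 1.32 CPM in A1G livers and 0.977, 2.16 and 0.822 CPM in GC livers, a rise of 2.40 ± 0.44 (adjusted p = 0.0194, edgeR). Of 20 cell cycle and replication genes Mcm2, Mcm4 and Rrm2 fell, at low levels, and 0 to 3 of the list were called when single libraries were left out. Bst2 was the only called gene of 28 interferon-stimulated genes (-0.87 ± 0.14), with none called without MG replicate 1 and 3 lower without A1G replicate 1. No gene was called among bile acid (25), circadian clock (20), p53 (19), immediate early (19), ER to Golgi transport (28), cytosolic ribosomal (61), nuclear oxidative phosphorylation (48) or mitochondrially encoded (13) genes. At an unadjusted p under 0.05 these lists held 6, 3, 3, 4, 6, 5, 10 and 0 genes, against 14.1% of all genes tested. DESeq2 called 1, 2, 1, 2, 2, 0, 3 and 0 of them. Log2 fold changes were negative in 59 of 61 ribosomal and 47 of 48 oxidative phosphorylation genes (medians -0.13 and -0.18). They were positive in 26 of 28 ER to Golgi genes (median 0.13), and over all genes tested 6651 were positive and 6542 negative. Without A1G replicate 1 there were calls for 2 bile acid genes (lower), 2 clock genes (1 in each direction), 2 p53 genes, 1 immediate early gene and 2 ER to Golgi genes (all higher). Without MG replicate 3 or GC replicate 3 there was 1 higher ER to Golgi gene, and without GC replicate 3 there were 2 lower oxidative phosphorylation genes.

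Chrna4, a nicotinic acetylcholine receptor subunit, had the largest fitted fall among the called genes. Its counts were 1, 4 and 0 in MG livers, against 30, 39 and 17 in A1G livers and 206, 267 and 95 in GC livers, or 0.0578, 0.196 and 0 CPM, against 1.34, 1.96 and 0.680 CPM and 10.1, 12.3 and 5.58 CPM. The 3 groups did not overlap, and the fitted change of -5.10 ± 0.64 (adjusted p = 0.00366, edgeR) rests on 5 counts in MG. Pitx3 and Fam83f, named by a rule that asks for no overlap of MG and 1 g, had changes of -2.74 ± 0.55 and -1.88 ± 0.37. Pitx3 adjoins Elovl3 on the other strand, and whether reads were shared was not tested. Nat8f6, an acetyltransferase, and Cd276, an immune checkpoint ligand, both fell at levels of at most 3.71 CPM, Nat8f6 by 2.76 ± 0.41. Nat8f6 overlaps the called gene Nat8f5 on the same strand, so reads may have been shared between them. Cd276 fell by 1.76 ± 0.27, and this turned to 0.25 when deposited TPM were tested with limma on log2(TPM + 1). Among genes of smallest p against both 1 g groups were also Tm4sf4, higher by 0.62 ± 0.10, and Samd1, lower by 0.73 ± 0.11.

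Markers of other cells gave 3 calls, where 1.66% of all genes tested were called. In whole liver fewer cells of a type and less RNA per cell cannot be told apart. Col1a1 and Col1a2, collagen I chains made by stellate cells and fibroblasts, were the only called genes of 13 stellate markers. Neither was called without MG replicate 1 or MG replicate 2, 3 markers were lower without A1G replicate 1, and of the 9 fits that each left out 1 library 7 called Col1a1 and 1 called Col1a2. Col1a1 had 0.866, 1.08 and 1.32 CPM in MG livers, against 2.29, 4.52 and 6.40 CPM in A1G livers and 3.71, 4.41 and 3.05 CPM in GC livers, and fell by 1.90 ± 0.35 (adjusted p = 0.0188, edgeR). The summed level of the 13 markers was 329 to 356 CPM in MG, 323 to 402 CPM in A1G and 351 to 422 CPM in GC, so the list as a whole overlapped. Folr2 was the only called gene of 12 Kupffer cell markers (-0.79 ± 0.18), whose sum was 228 to 247 CPM in MG, 214 to 348 CPM in A1G and 240 to 335 CPM in GC. Folr2 was called in 1 of those 9 fits, the one without A1G replicate 1. Cholangiocyte markers summed to 29.3 to 34.1 CPM in MG, 35.4 to 52.2 CPM in A1G and 30.6 to 58.6 CPM in GC, and none of the 8 tested was called (3 at an unadjusted p under 0.05, 1 by DESeq2). Erythroid markers summed to 142 to 251 CPM in MG, 113 to 417 CPM in A1G and 316 to 358 CPM in GC. None of the 5 tested was called, all 5 had negative log2 fold changes with a median of -0.60, and 3 were called lower without A1G replicate 1. Pancreatic acinar markers, of which 1 was tested and not called, summed to 7.18 to 10 CPM in MG, 6.85 to 10.4 CPM in A1G and 16.5 to 19 CPM in GC. The part of these cells in the results above was not tested.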

How the data were processed

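RNA was extracted from frozen liver pieces, poly(A)-selected, made into directional libraries and sequenced on a NovaSeq instrument. According to the submitters' processing notes and the study's methods, the authors trimmed reads with fastp 0.19.4 and quantified transcripts with Salmon 0.9.1 on GRCm38, and the annotation release is not given in the sources used here. One table deposited by the authors holds estimated counts for each gene, of which 17.1% were not whole. Another table deposited by the authors holds TPM, transcript abundances scaled to transcript length and to the library sum. Deposited tables of fold changes, standard errors and p-values from the authors' own comparisons were not used. Every sample column was mapped by its label.

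Estimated counts were rounded and genes kept by filterByExpr (minimum count 10), leaving 13193 genes with 99.9% of counts of 20626 with at least 1 count. After TMM scaling, edgeR 4.0.16 in R 4.3.3 fitted 1 coefficient per group to 9 libraries (6 residual and 5.7 prior degrees of freedom, common dispersion 0.0333). Quasi-likelihood F tests were two-sided and adjusted by Benjamini-Hochberg over all genes tested, with a threshold of 0.05. CPM are TMM-normalized. The standard error (SE) is the absolute fitted log2 fold change divided by the square root of F. For the SE the change was fitted without the small prior count that shrinks the printed changes, which matters for genes of few counts. Counting error is small beside the spread between mice for all but the genes of few counts, and single libraries of 1 mouse each leave 3 values a group. DESeq2 1.42.0 and limma 3.58.1, other scalings and filters, a replicate block and leaving out each library were the alternatives. On simulated counts of 12997 genes the test recovered 83 of 100 genes changed 2-fold and 100 of 100 changed 4-fold, with 18 false among 201 calls. The changed genes were drawn from those of higher counts, A1G and GC had the same level, and no library stood apart. These rates may therefore not hold for the real contrast.

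Symbols were matched for 34582 gene IDs, and positions came from GENCODE M21 (GRCm38). The 29 pathway and 11 marker lists and the comparison itself were chosen with earlier results of these data known. Genes named were, by rule, the 10 per direction with the largest change among those called, where counts averaged 50 or more and MG was separate from all 6 libraries at 1 g, the 10 per direction of smallest p against both 1 g groups, up to 4 per list, and the 5 per direction of smallest p among genes called only with both 1 g groups together. Other genes, mostly further members of a list, were named after their values were seen. Predicted genes were counted and not named, and 2 further genes that the rule selects are not reported here.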

Additional observations from a re-analysis of the deposited data

How the results depend on the processing

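With the deposited counts and other scalings the contrast gave 218 calls (RLE), 218 (upper quartile) and 205 (library size alone, 48.8% of them higher against 39.3% with TMM), and 207 with 10 counts in every library, 206 with robust shrinkage, 219 without mitochondrial and 212 without Mup genes. Without a filter 489 genes were called (195 higher and 294 lower), and with DESeq2 557 (228 and 329), which held all 219. With limma on log2(TPM + 1) there were 89 (49 and 40, 55.1% higher), on log2(TPM + 0.1) 24 (14 and 10, 58.3% higher) and on log2(TPM + 1) without a filter 59 (46 and 13, 78% higher), and TPM moved the median of all genes to 0.11, 0.13 and 0.03. A fit of A1G and GC as 1 group gave 36 (17 and 19), and asking also for a change of 1 or more on the log2 scale left 108 (36 and 72). Calls against each 1 g group, 0 with all libraries, were 78 without a filter, 2 with 10 counts in every library, 77 with DESeq2, 4 with robust shrinkage and 12 with the replicate block. A1G vs. GC, 85 calls, gave 384 without a filter, 411 with DESeq2, 16, 13 and 1 with limma in the order above, 50 without Mup genes, 145 with the replicate block and 49 at the fold limit. The cause of these shifts was not tested. Leaving out 1 library gave 46 to 420 calls (22 to 173 higher and 24 to 247 lower), 0 to 27 against each 1 g group and 4 to 204 for A1G vs. GC. Same-numbered libraries correlated at -0.00818 to 0.114 in their deviations, and differently numbered libraries of different groups at -0.0882 to 0.0407. Whether the numbers pair the mice was not tested, and the main fit left them unpaired. The replicate block gave 292 calls (127 and 165), of which 207 were among the 219. Of 76 named genes that were called, 76 stayed past the threshold with RLE, DESeq2 and without A1G replicate 1, 27 without MG replicate 1, 35 without MG replicate 2 and 54 without MG replicate 3. The only reversal was Cd276, with 0.25, 0.28 and 0.25 in the limma fits. Genes of few counts, such as Chrna4 and Pnpla5, are limited by depth.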

Other observations

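Further gene families were looked at after their values were seen, and are given as values. Of 13 Cyp2c genes tested 6 rose and none fell, Cyp2c54 being the sixth, with 607, 580 and 537 CPM in MG livers, against 290, 327 and 473 CPM in A1G livers and 238, 202 and 174 CPM in GC livers (log2 fold change 1.07 ± 0.15, adjusted p = 0.00656, edgeR). The family did not move as one, since at an unadjusted p under 0.05 it held 9 higher and 2 lower genes. In 1 gene all MG libraries lay below those at 1 g. Of 20 Mup genes tested 8 fell and none rose, and the family median was -0.35 against A1G and -1.76 against GC. Among 18 genes of glycogen metabolism the liver glycogen synthase gene Gys2, the branching enzyme gene Gbe1 and the liver phosphorylase gene Pygl fell and none rose. Gys2 stood at 83.9, 75.4 and 97.2 CPM in MG livers, against 99.8, 129 and 113 CPM in A1G livers and 170, 142 and 137 CPM in GC livers (-0.61 ± 0.12, adjusted p = 0.028). Gbe1 and Pygl fell by 0.59 ± 0.12 and 0.61 ± 0.13, and in Pygl A1G replicate 1 lay inside the MG range.

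Of 7 H2-Q genes, class I histocompatibility genes beside each other on chromosome 17, 3 fell and none rose. H2-Q10, a secreted liver form, read 1287, 1373 and 1266 CPM in MG livers, against 1655, 2041 and 1686 CPM in A1G livers and 2658, 2220 and 2157 CPM in GC livers (-0.65 ± 0.12, adjusted p = 0.0172, edgeR), and H2-Q6 and H2-Q7 fell by 1.21 ± 0.18 and 0.80 ± 0.17. These genes are close copies, and their reads may be shared. Of 27 collagen chain genes tested Col1a1 and Col1a2 were called, both lower. The collagen chaperone gene Serpinh1 fell by 0.71 ± 0.13, with 15.2, 15.8 and 11.9 CPM in MG livers, against 20.0, 20.4 and 25.2 CPM in A1G livers and 23.0, 25.8 and 26.5 CPM in GC livers, and the matrix protein gene Postn fell by 1.06 ± 0.21 (adjusted p = 0.0183 and 0.0292).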
